A study of Gallus gallus with 4 samples.

Results

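Chromosome 2, one of the large macrochromosomes of the chicken, carried 9216 of the 47621 H3K9me3 domains deposited for cultured primordial germ cells (cPGCs) and embryonic stem cells (ESCs), or 19.4% of all domains. They were taken by chromosome alone, and comprised 4888 domains of cPGCs and 4328 domains of ESCs. cPGCs are chicken germ cell precursors of the migratory stage kept in culture, and ESCs are cells cultured from the early chicken embryo. Both were crosslinked with formaldehyde, and sonicated chromatin was pulled down with an Abcam antibody to H3K9me3, the trimethylated form of lysine 9 on histone H3. Cultured cells stand in here for germ cells of the embryo. Neither cell type carried a stated genetic change or treatment, and the line, sex and donor were not given in the sources used here. Each cell type contributed 1 immunoprecipitated and 1 input library, so the values below carry no replicate error and no p-value. The identity of the cells could not be checked in the domain lists, because these hold only start and end positions on galGal5, without counts or enrichment.

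H3K9me3 is written by histone methyltransferases such as SETDB1 and the SUV39H enzymes and is bound by HP1 proteins, which compact chromatin. It marks constitutive heterochromatin around centromeres and also spreads as broad domains over transcriptionally inactive parts of chromosome arms. Chicken macrochromosomes are poorer in genes and in GC than the microchromosomes and hold long gene-poor stretches. A domain here is a run of enriched windows of 300 bp, joined by the authors across short gaps. Its width gives how far called enrichment extended. The lists hold no enrichment values, so width could not be separated from the strength of the mark or from read depth.

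Domains covered 68.8 Mb of chromosome 2 in cPGCs and 34.7 Mb in ESCs. This was 46.0% and 23.2% of the 149.5 Mb up to the last domain of either list, and the ratio of cPGC to ESC coverage was 1.98. The same ratio was 1.89 on chromosome 1, 1.63 on chromosome 3 and 1.43 over all autosomes other than chromosome 2. Coverage on those other autosomes was 32.0% in cPGCs and 22.4% in ESCs, so chromosome 2 lay above them in cPGC coverage and within 1 percentage point of them in ESC coverage. Chromosome 1 had more of its bases in domains, with 51.3% for cPGCs and 27.1% for ESCs. The denominators include unsequenced and repeated bases to which unique reads cannot map. Read depth and immunoprecipitation efficiency were unknown for each list, so their part in the difference was not tested.

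The difference was present along the whole chromosome at a scale of 5 Mb. Chromosome 2 was divided into 30 windows of 5 Mb from its start, the last of them 4522100 bp long. All 30 windows had more domain bases in cPGCs, against 78.9% of the 185 windows of all autosomes. Coverage of the windows lay between 30.5% and 68.3% in cPGCs, with a median of 46.6%, and between 13.2% and 40.7% in ESCs, with a median of 22.1%. The ranges overlapped between windows, yet no window had an ESC coverage above its own cPGC coverage. In 26 of the 30 windows cPGC coverage was at least 1.5 times ESC coverage, against 45.9% of the windows of all autosomes. In 14 windows it was at least 2 times as high, against a background of 22.7%. Chromosome 1 had 31 of 39 windows (79.5%) at 1.5 times or more and 21 (53.8%) at 2 times or more, and chromosome 3 had 14 (63.6%) and 4 (18.2%) of 22. No window of chromosome 2 had an ESC coverage of 1.5 times the cPGC coverage or more, against 6.49% of the windows of all autosomes. Chromosomes 1 and 3 had no such window either.

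**Figure D1:**
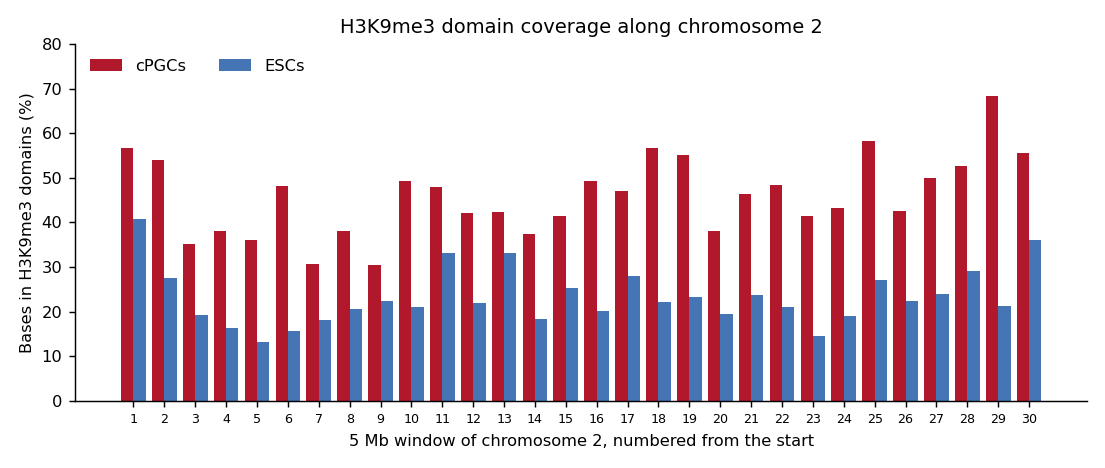
Bars give the share of bases in H3K9me3 domains (%) in each of 30 windows of 5 Mb of chromosome 2, numbered from its start, in cPGCs (red, left) and ESCs (blue, right), 1 library pair each. The cPGC bar is higher in all 30 windows, from 30.5% in window 9 to 68.3% in window 29, while ESC bars stay between 13.2% and 40.7%.

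The size of the difference was not even. Subtracting ESC from cPGC coverage gave 8.17 to 47.2 percentage points per window, with a median of 22.1 and a standard deviation of 8.13 across the windows. This standard deviation was 35.7% of the mean difference on chromosome 2, 32.3% on chromosome 1 and 58.0% on chromosome 3. The largest difference lay in window 29 (galGal5, chr2:140000001-145000000), with a coverage of 68.3% in cPGCs against 21.2% in ESCs. It ranked 1 of the 185 windows of all autosomes, both by difference and by its ratio of 3.23. Windows 18 (chr2:85000001-90000000) and 6 (chr2:25000001-30000000) followed on chromosome 2. In window 18 coverage was 56.6% in cPGCs and 22.2% in ESCs. In window 6 it was 48.1% in cPGCs against 15.7% in ESCs, and the ratio was 3.06.

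The smallest differences lay in windows 9, 13 and 7. In window 9 (chr2:40000001-45000000) coverage was 30.5% in cPGCs, the lowest cPGC value of the chromosome, and 22.4% in ESCs. In window 13 (chr2:60000001-65000000) it was 42.3% in cPGCs against 33.2% in ESCs, and the ratio was 1.28. In window 7 (chr2:30000001-35000000) it was 30.6% in cPGCs and 18.2% in ESCs. Windows 9 and 13 thus reached a small difference in separate ways, one with little coverage in cPGCs and the other with high coverage in ESCs.

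In net terms, cPGC domains held 34.1 Mb more of chromosome 2 than ESC domains. The 10 windows with the largest excess make up 33.4% of the length and held 46.3% of this excess, or 15.8 Mb. Window 29 alone held 6.92% of it on 3.34% of the length, and leaving that window out gave a coverage ratio of 1.94. To gather 50% of the excess, 11 of the 30 windows (36.7%) were needed on chromosome 2, against 15 of 39 (38.5%) on chromosome 1 and 7 of 22 (31.8%) on chromosome 3. Over the autosomes other than chromosome 2, 26 of 155 windows (16.8%) were enough. There, 39 windows had more domain bases in ESCs and lowered the net total, so this share is not directly comparable with that of chromosome 2. The windows were ranked by the excess itself, so these shares describe how it was spread and are no test.

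**Figure D2:**
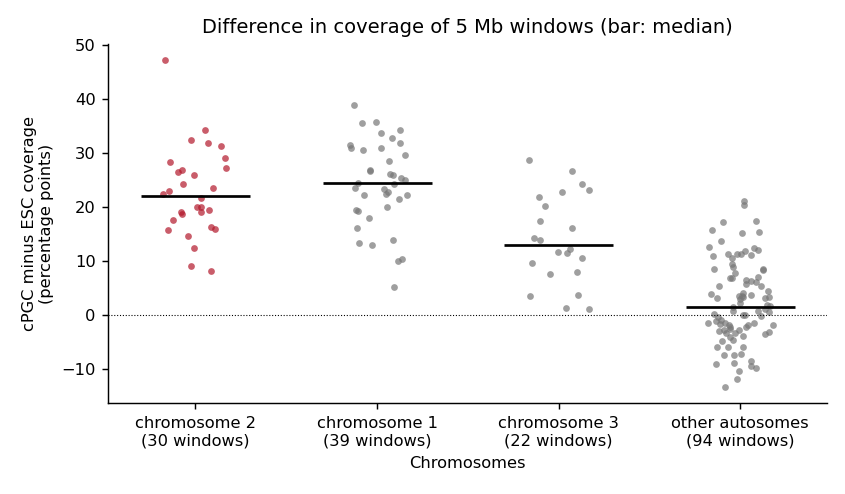
Each point is a window of 5 Mb (of at least 2.5 Mb at chromosome ends), and the vertical axis gives cPGC minus ESC coverage in percentage points; black bars are medians and the dotted line marks equal coverage. The 30 windows of chromosome 2 lie between 8.17 and 47.2 points, all above 0, as do those of chromosomes 1 and 3, whereas 39 of the 94 windows of the other autosomes lie below 0.

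Stretches above the mean difference of the chromosome, 22.8 percentage points, were defined as runs of at least 2 neighbouring windows. There were 4 of them, at 20 to 30 Mb, 85 to 95 Mb, 105 to 125 Mb and 130 to 145 Mb. The longest, of 4 windows from 105 to 125 Mb, held 16.1% of the excess on 13.4% of the length, with a coverage of 47.8% in cPGCs against 20.4% in ESCs. That from 130 to 145 Mb held 14.2% of the excess, with a coverage of 57.0% in cPGCs against 24.8% in ESCs. The stretch from 85 to 95 Mb held 9.74% of the excess and that from 20 to 30 Mb 8.13%, each on 6.69% of the length. The windows were picked by a difference above the mean, so by rule each stretch holds more of the excess than of the length. Differences of adjacent windows were not alike, with a Pearson r of -0.05 over 29 adjacent pairs that share the same libraries.

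In parts of about 50 Mb, cPGC coverage rose towards the end of the chromosome, while ESC coverage was not ordered in the same way. Single windows showed no steady rise, and windows 1 and 2 had 56.6% and 54.0% in cPGCs. In the first 50 Mb coverage was 41.7% in cPGCs and 21.5% in ESCs, from 50 to 100 Mb 45.7% in cPGCs and 24.5% in ESCs, and in the remaining 49.5 Mb 50.6% in cPGCs and 23.7% in ESCs. These parts held 29.6%, 31.2% and 39.1% of the excess. Across the 30 windows cPGC and ESC coverage went together only loosely (Pearson r 0.46, Spearman rho 0.55). The same coefficients were 0.70 and 0.58 on chromosome 1 and 0.75 and 0.78 on chromosome 3. The windows of each chromosome come from the same 2 pairs of libraries. Both values of a window refer to the same bases, so these coefficients are descriptions.

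At finer scales windows with more domain bases in ESCs appeared, few of them at 1 Mb and more at 100 kb. In windows of 1 Mb, 144 of 150 (96.0%) had more domain bases in cPGCs, against 73.5% of such windows of all autosomes. The share was 95.9% on chromosome 1 and 87.4% on chromosome 3. In 112 windows of chromosome 2 (74.7%) cPGC coverage was at least 1.5 times ESC coverage, against 47.3% over all autosomes. This share was 73.0% on chromosome 1 and 55.0% on chromosome 3. The 6 exceptions began at 37, 40, 41, 61, 71 and 147 Mb, and all but the 1 at 147 Mb lay in the first 100 Mb. The largest of them began at 61 Mb, where coverage was 30.8% in cPGCs and 42.5% in ESCs. In windows of 100 kb, 1150 of 1495 (76.9%) had more domain bases in cPGCs, against 60.2% over all autosomes, 318 had more in ESCs and 27 had equal numbers. The share with more in cPGCs was 79.1% on chromosome 1 and 66.7% on chromosome 3. The windows with more domain bases in ESCs formed 191 separate runs, the longest of 8 windows (chr2:40700001-41500000), covered at 23.6% in cPGCs and 43.1% in ESCs. The longest run with more domain bases in cPGCs had 51 windows (chr2:84200001-89300000) with a coverage of 59.1% in cPGCs against 24.5% in ESCs.

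Densely covered windows of 100 kb were more frequent in cPGCs. At least 75% of the bases were covered in 311 of the 1495 windows in cPGCs and in 27 in ESCs. The same counts were 560 and 88 of 1962 windows on chromosome 1, and 157 and 20 of 1113 on chromosome 3. Below 10% coverage there were 257 windows in cPGCs and 411 in ESCs, 142 of them in both lists. Chromosome 1 had 238 and 468 windows below 10%, and chromosome 3 had 287 and 358. A window with at least 75% in cPGCs and less than 10% in ESCs occurred 35 times, and the reverse once. With 311 windows at 75% or more in cPGCs and 27 in ESCs, this imbalance partly repeats the difference in coverage. Counts that join both lists are not compared with other chromosomes here. The longest dense cPGC runs had 8 windows each and lay at chr2:139000001-139800000, with 87.7% covered in cPGCs and 45.5% in ESCs, and at chr2:143300001-144100000, with 84.6% in cPGCs and 35.5% in ESCs. In window 29, 30 of its 50 windows of 100 kb reached 75% in cPGCs and none did in ESCs, where the highest value was 53.4%.

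Mean cPGC coverage was above mean ESC coverage in each class of ESC coverage except the highest. Among the 411 windows of 100 kb covered below 10% in ESCs, the mean coverage was 30.4% in cPGCs and 4.26% in ESCs. The cPGC mean was 43.8% in the 507 windows covered at 10 to 25% in ESCs, 55.1% in the 431 at 25 to 50%, 68.5% in the 119 at 50 to 75%, and 79.7% in the 27 at 75% or more. In the last class the ESC mean was the higher, at 79.7% in cPGCs and 82.9% in ESCs, although 18 of the 27 windows had more domain bases in cPGCs. The median cPGC coverage of these 27 windows was 91.0%. For this class the means were 87.4% in cPGCs and 83.5% in ESCs on chromosome 1, and 79.1% and 83.8% on chromosome 3. Sorted the other way, the 311 windows covered at 75% or more in cPGCs had a mean coverage of 35.8% in ESCs, and the 257 windows below 10% in cPGCs had 11.9%. Sorting by one list selects its extreme windows, so the classes are descriptions.

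Domains of chromosome 2 were wider in cPGCs. cPGC domains had a median width of 9600 bp (quartiles 5100 and 17700 bp) and a mean of 14069 bp. ESC domains had a median of 6000 bp (quartiles 3300 and 10500 bp) and a mean of 8018 bp. Widths at the 5% and 95% points were 2100 and 40095 bp for cPGC domains, against 1200 and 21000 bp for ESC domains. The median width was higher in cPGCs in all 30 windows, with 7500 to 14700 bp in cPGCs and 4800 to 7800 bp in ESCs. Window medians were not compared with other chromosomes. Median widths on the autosomes other than chromosome 2 were 8700 bp in cPGCs and 6300 bp in ESCs.

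**Figure D3:**
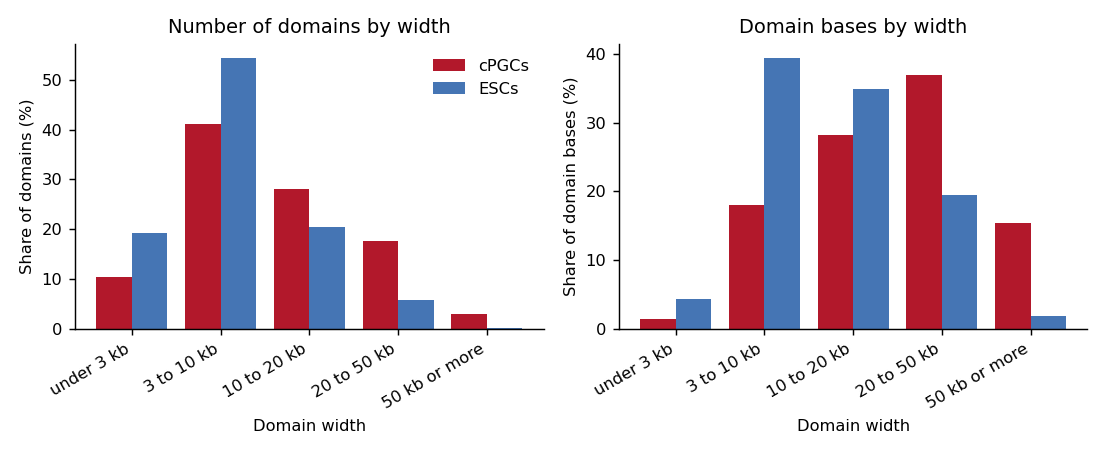
Shares of the domains (left) and of the domain bases (right) of chromosome 2 by domain width, in % of each cell type's own total, for cPGCs (red, 4888 domains) and ESCs (blue, 4328 domains). Domains of 20 kb or more hold 52.3% of cPGC bases against 21.4% of ESC bases, while domains of 3 to 10 kb hold 18.1% and 39.5%.

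The wide end of the distribution differed most. A width of at least 20 kb was found for 1007 cPGC domains (20.6%) and 257 ESC domains (5.94%), which held 52.3% and 21.4% of the domain bases. Over all autosomes these were 19.3% of cPGC domains with 52.7% of their bases, and 7.28% of ESC domains with 26.2%. A width of 50 kb was reached by 143 cPGC domains (2.93%) and 10 ESC domains (0.231%), and one of 100 kb by 18 cPGC domains and no ESC domain. Over all autosomes 771 of 23130 cPGC domains and 123 of 24490 ESC domains reached 50 kb, and 112 and 7 reached 100 kb. Narrow domains showed the reverse, with 503 domains under 3 kb (10.3%) in cPGCs and 834 (19.3%) in ESCs. These shares were near those of all autosomes, 11.0% and 19.3%. Domains of 50 kb or more occurred in 28 of the 30 windows in cPGCs and in 4 in ESCs, a count not compared with other chromosomes.

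Domains of 50 kb or more were denser at both chromosome ends in cPGCs, although 94 of the 143 lay between the ends. The first 10 Mb held 27 cPGC domains of 50 kb or more and the last 10 Mb held 22, against 7.26 per 10 Mb between them. ESC domains of this width numbered 7 in the first 10 Mb, 0 in the last 10 Mb and 3 between. Coverage was 55.3% in cPGCs and 34.2% in ESCs in the first 10 Mb, and 62.4% in cPGCs and 29.9% in ESCs in the last 10 Mb. Between these ends it was 44.0% in cPGCs and 21.8% in ESCs. The coverage ratio was therefore 1.62 in the first 10 Mb, 2.09 in the last 10 Mb and 2.01 between. On chromosome 1 the numbers of wide cPGC domains were 25 and 28 in the first and last 10 Mb, against 13.6 per 10 Mb between, and on chromosome 3 they were 12 and 20, against 5.80.

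The widest cPGC domain of the chromosome spanned 200400 bp (chr2:15048901-15249300). It overlapped 12 ESC domains, the largest number under a single cPGC domain of chromosome 2, and 68.9% of its bases lay in them. The next widest, of 190200 bp (chr2:83875801-84066000), overlapped 7 ESC domains at 36.6% of its bases, and that of 165900 bp (chr2:65177701-65343600) overlapped 4 at 24.8%. By contrast, the cPGC domain of 164700 bp at chr2:3661801-3826500 lay in ESC domains at 94.2%. Very wide cPGC domains thus ranged from mostly outside ESC domains to almost wholly shared.

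The widest ESC domain spanned 84300 bp (chr2:2420701-2505000) and lay at 98.6% in a single cPGC domain. Of the 5 widest ESC domains, 4 lay in the first 5 Mb. The other, of 77700 bp (chr2:61861201-61938900), had no overlap with cPGC domains and lay within the 1 Mb window at 61 Mb in which ESC coverage was the higher. Among cPGC domains that met no ESC domain, the widest had 67500 bp (chr2:125065801-125133300). The next widest of this kind spanned 61500 and 54000 bp for cPGCs, against 35700 and 29400 bp for ESCs.

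The number of domains contributed less than their width. cPGC domains were 1.13 times as many as ESC domains and 1.75 times as wide on average, which is 17.8% and 82.2% of the coverage ratio on a log scale. The ratio of domain numbers was 1.08 on chromosome 1 and 1.02 on chromosome 3, and 0.905 over all autosomes other than chromosome 2. Along chromosome 2, 22 windows had more domains in cPGCs and 8 had more in ESCs. The number per window was 120 to 199 in cPGCs and 89 to 183 in ESCs. The mean width ratio of the windows lay between 1.35 and 2.81 and exceeded the number ratio, which lay between 0.808 and 1.71, in 28 of the 30 windows. These counts of windows are given for chromosome 2 alone, so they do not set it apart from other chromosomes. The larger number in cPGCs depended on narrow separations. When neighbouring domains 3000 bp or less apart were joined, the number ratio was 0.864 and the mean width ratio 2.30, so the split between number and width depended on the joining distance.

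cPGC domains were also closer together. The median gap between neighbouring domains was 5100 bp in cPGCs (quartiles 2100 and 15600 bp) and 13800 bp in ESCs (4200 and 33600 bp). Gaps of up to 5 kb made up 49.3% of all gaps in cPGCs and 27.4% in ESCs. The smallest gap was 1800 bp in both, the least that the calling gap of 1500 bp and window of 300 bp allow. Gaps of 50 kb or more numbered 389 in cPGCs and 673 in ESCs and held 40.8 Mb and 61.8 Mb. The median gap of chromosome 1 was 4200 bp for cPGCs against 11400 bp for ESCs, and that of chromosome 3 was 6300 bp against 12900 bp.

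Bases outside the domains of both cell types made up 69.9 Mb, or 46.8% of chromosome 2. This share was 41.9% on chromosome 1, 54.5% on chromosome 3 and 59.1% over all autosomes other than chromosome 2. The longest stretch without a domain in either list spanned 524100 bp (chr2:52316101-52840200). The next longest spanned 214200 bp (chr2:72868201-73082400) and 207900 bp (chr2:22417501-22625400). In all, 58 such stretches reached 100 kb and together held 7.88 Mb. Whether they can be mapped by unique reads was not tested, since no galGal5 sequence was used here.

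cPGC and ESC domains lay largely at the same places, as seen from the ESC side. cPGC domains covered 68.8% of the bases in ESC domains and 39.1% of the bases outside them. Conversely, ESC domains covered 34.7% of the bases in cPGC domains and 13.4% of those outside. On chromosome 1 cPGC domains covered 74.9% of ESC domain bases, and ESC domains covered 39.6% of cPGC domain bases. On chromosome 3 these shares were 61.6% and 37.8%, and over the autosomes other than chromosome 2 they were 60.4% and 42.3%. Seen from the cPGC side, the share of chromosome 2 was thus the lowest of these. In each of the 30 windows the share of ESC domain bases inside cPGC domains was above the cPGC coverage of that window. It lay between 51.5% and 82.6%, and this count of windows was not compared with other chromosomes. Windows include bases to which unique reads cannot map, which lower the coverage of both lists. Their part in the difference between this share and the coverage was not tested. The shared bases amounted to 23.9 Mb. The bases outside ESC domains were covered by cPGC domains at 22.1% to 64.5% per window, with a median of 38.7%, while those outside cPGC domains were covered by ESC domains at 8.30% to 22.8%, with a median of 12.3%. The ranges of the 30 windows barely touched. Within a window the first value is the larger whenever cPGC domains hold more bases, so its order repeats the difference in coverage.

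By number, 2693 cPGC domains (55.1%) and 3275 ESC domains (75.7%) met the other list over at least 1 bp. On the autosomes other than chromosome 2 these shares were 57.6% and 63.2%, and on chromosome 1 they were 57.9% and 78.9%. Of the ESC domains of chromosome 2, 1803 (41.7%) lay wholly inside a cPGC domain, 1472 (34.0%) partly, and 1053 (24.3%) had no overlap. The share wholly inside was 45.6% on chromosome 1 and 33.1% on chromosome 3. Wide domains overlapped more often. Of the cPGC domains of 50 kb or more, 137 of 143 (95.8%) overlapped an ESC domain, against 163 of 503 (32.4%) of those under 3 kb. In ESCs the overlap was 9 of 10 at 50 kb or more and 59.7% under 3 kb. A wider domain can meet another by its width alone.

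Many cPGC domains bridged several ESC domains, with 691 (14.1%) over 2 or more, 195 over 3 or more and 27 over 5 or more. Among ESC domains, 386 (8.92%) spanned parts of 2 or more cPGC domains, and 1 reached 5. Over all autosomes the shares with 2 or more were 14.1% for cPGC domains and 8.10% for ESC domains, so chromosome 2 lay near them. Of the cPGC domains of 50 kb or more, 124 of 143 (86.7%) overlapped 2 or more. The bridging was also seen from the gaps. Of the 4327 gaps between neighbouring ESC domains, 1030 (23.8%) were filled from end to end by a cPGC domain, 2408 (55.7%) were entered in part and 889 (20.5%) held no cPGC domain. The filled share was 29.5% on chromosome 1 and 20.5% on chromosome 3. Filled gaps were short, with a median of 3000 bp. In the reverse direction an ESC domain filled 454 of the 4887 gaps between cPGC domains (9.29%). This share was 12.2% on chromosome 1 and 11.0% on chromosome 3.

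**Figure D4:**
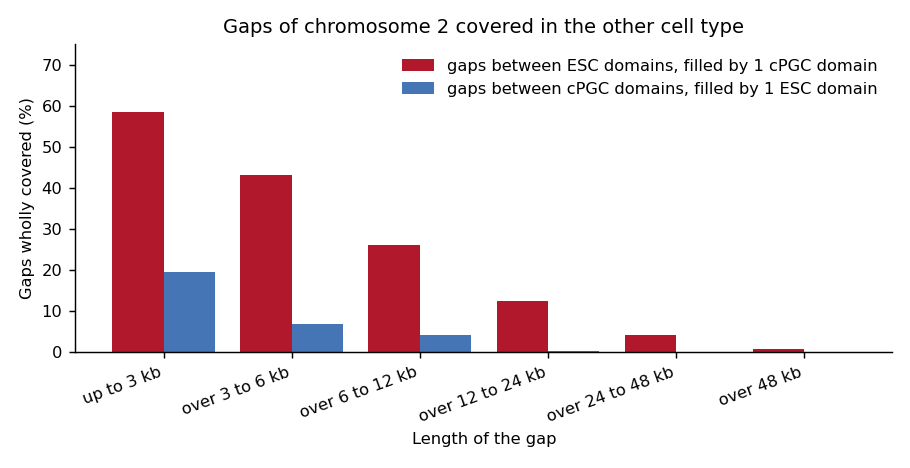
Share of gaps between neighbouring domains of chromosome 2 (%) that a domain of the other cell type covered from end to end, by length of the gap; red bars are ESC gaps filled by a cPGC domain and blue bars cPGC gaps filled by an ESC domain. ESC gaps of up to 3 kb were filled in 58.5% of cases and those over 48 kb in 0.564%, and the red bar is the higher in each class. Wider domains can fill more gaps by their width alone.

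The share of filled ESC gaps fell with length. A longer gap needs a wider domain to fill it, so the fall is partly set by the rule. Wider cPGC domains can likewise fill more gaps by their width alone. It was 521 of 890 (58.5%) for gaps of up to 3 kb, 43.0% for gaps over 3 to 6 kb, 26.0% over 6 to 12 kb, 12.4% over 12 to 24 kb, and 4 of 709 (0.564%) over 48 kb. Gaps between cPGC domains of up to 3 kb were filled by an ESC domain in 371 of 1917 cases (19.4%). The share of gap bases inside cPGC domains changed less with length, from 63.7% in ESC gaps of up to 3 kb to 45.3% in those over 24 to 48 kb and 31.7% in those over 48 kb. The values for gaps over 24 to 48 kb and over 48 kb lie below the cPGC coverage of the chromosome, 46.0%. Of all bases outside ESC domains, 39.1% lay in cPGC domains, and only the value over 48 kb lies below that.

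In 1443 pairs, a cPGC domain and an ESC domain overlapped each other and no further domain. The cPGC domain was the wider in 1049 (72.7%) and the narrower in 369 (25.6%), and 25 pairs had equal width. It extended beyond the ESC domain on both sides in 619 pairs (42.9%), on 1 side in 605 (41.9%) and on neither in 219 (15.2%). The median extension was 1500 bp at the start and 1200 bp at the end, so neither side was favoured by more than 1 window of 300 bp. Both edges were the same in 5 pairs. On chromosome 1 the cPGC domain was the wider in 73.8% of 1797 pairs, and on chromosome 3 in 66.8% of 936 pairs.

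Bases were classed as shared core, as expansion when they lay in the remainder of an overlapping domain, and as specific when their domain had no overlap. Expansions held 25.1 Mb in cPGCs and 5.13 Mb in ESCs, or 36.5% and 14.8% of their domain bases. Specific domains held 19.8 Mb in cPGCs (28.7%) and 5.70 Mb in ESCs (16.4%). With domains as deposited and an overlap of 1 bp, expansions made up 58.7% of the net excess of chromosome 2 and specific domains 41.3%. The share of expansions was 59.7% on chromosome 1, 62.1% on chromosome 3 and 72.6% over the autosomes other than chromosome 2. Which part was the larger depended on the setting. With only domains of at least 5000 bp, the net difference was 15.7 Mb in expansions and 20.01 Mb in specific domains. When at least 50% of a domain had to lie in the other list, the specific share of bases was 67.7% for cPGCs and 26.2% for ESCs, and the net difference was 2.98 Mb in expansions and 37.4 Mb in specific domains. These shifts are partly set by the rules. The 50% rule moves wide cPGC domains over narrow ESC domains into the specific class. The 5000 bp cut left 2543 of 4328 ESC domains, so cPGC domains that met only removed ones became specific.

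Both classes took part along the whole chromosome. The net difference was positive in all 30 windows for expansions and for specific domains. Window counts of these classes were not compared with other chromosomes. With domains as deposited, expansions were the larger part in 22 windows, and their share of the excess of a window lay between 37.7% and 99.7%, with a median of 60.5%. The lowest share was that of window 23 (110 to 115 Mb), where ESC coverage was 14.6% and cPGC coverage 41.4%. The highest was that of window 13, where specific domains of the 2 cell types nearly balanced. In window 29 expansions gave 1.71 Mb and specific domains 0.649 Mb of the 2.36 Mb.

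Specific domains were narrower than overlapping ones in both lists. Their median width was 6900 bp for the 2195 of cPGCs and 4200 bp for the 1053 of ESCs, against 13200 bp and 6900 bp for overlapping domains. For cPGCs these medians were 7200 and 14100 bp on chromosome 1, and 6750 and 12000 bp on chromosome 3. A narrow domain is less likely to meet another by its width alone, so the order is partly set by the rule. Of the specific cPGC domains, 16.8% lay within 3 kb of an ESC domain, and 668 (30.4%) lay more than 20 kb from one. The median distance to the nearest domain of the other cell type was 11700 bp for specific cPGC domains and 12000 bp for specific ESC domains. Such distances also depend on the spacing of the other list. Among specific domains, 183 of cPGCs and 19 of ESCs reached 20 kb. These distances and counts were not compared with other chromosomes.

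A later assembly, GRCg7b, lists 1499 protein-coding genes on chromosome 2. Only part of the study's gene table, with 1999 loci on galGal5, could be used here. Of these, 1 lay on chromosome 2, so this count is no measure of its gene content. The locus was that of *APCDD1*, whose human counterpart encodes a membrane glycoprotein that inhibits Wnt signalling. Its locus (chr2:98536792-98568148) was covered at 64.1% by 2 cPGC domains and at 84.7% by 3 ESC domains, and 57.4% lay in both. The cPGC domains there were 7800 and 12300 bp wide and the ESC domains 12600, 9300 and 7500 bp. *APCDD1* thus lay among the places with more coverage in ESCs, within a window of 5 Mb (95 to 100 Mb) covered at 38.1% in cPGCs and 19.4% in ESCs. Its next protein-coding neighbour in the RefSeq order of GRCg7b is *VAPA*, which encodes a membrane protein of the endoplasmic reticulum. Other genes of chromosome 2 were not placed on galGal5 here, so the windows could not be compared with gene content.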

How the data were processed

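H3K9me3 domains were analysed from 1 immunoprecipitated and 1 input library each of cPGCs and ESCs. The authors aligned paired reads to galGal5 with Bowtie2, kept proper pairs with a mapping quality of at least 30, called broad peaks with MACS2 (cutoff 0.1) and islands with SICER (window 300 bp, gap 1500 bp), and retained islands that passed a strict false-discovery threshold or met a peak. The deposited values are start and end positions counted from 0, and 1 was added to each for printing. Depth per library was not given in the sources used here. The mapping quality filter removes reads of repeats, so marked repeats can be missing from the domains.

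Covered bases, widths, gaps and overlaps of chromosome 2 were computed with pandas 2.3.3, numpy 2.4.6 and scipy 1.17.1 under Python 3.11.15, and plots were drawn with matplotlib 3.10.9. The routines were tested on simulated lists. Windows shorter than 2.5 Mb at chromosome ends were left out of the comparison with other autosomes. No test was made between cell types. Alternatives joined domains, removed narrow ones, shifted windows, or changed the overlap or ratio required. Named windows and domains were the 3 largest and 3 smallest differences, the widest and widest specific domains, the cPGC domain over most ESC domains and the longest free stretch. Further wide domains, runs of windows of 100 kb, chromosome ends, coverage classes and domain pairs were added after values had been seen. The chromosome and these rules were chosen with earlier results of these data known. The locus of *APCDD1* comes from the study's gene table, and its coverage was computed anew.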

Additional observations from a re-analysis of the deposited data

How the results depend on the processing

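The cPGC coverage stayed above the ESC coverage under each alternative run, and all windows of 5 Mb had more domain bases in cPGCs (30 of 30, and 31 of 31 with windows shifted by 2.5 Mb). Joining neighbouring domains 3000 bp or less apart gave 2971 domains in cPGCs, a coverage of 48.8% in cPGCs and 24.5% in ESCs, median widths of 13500 and 6900 bp, median gaps of 11400 and 20100 bp, core shares of 36.1% and 71.7%, 41.3% of ESC-free bases inside cPGC domains and 46.7% of the excess in 10 windows. It turned the ratio of domain numbers round, to 0.864. With only domains of at least 3000 bp, coverage was 45.3% in cPGCs and 22.2% in ESCs, the ratio 2.04, median widths 10800 and 7200 bp, median gaps 5700 and 17100 bp, the core 33.6% of cPGC bases, and 38.7% of ESC-free bases lay inside cPGC domains. With only domains of at least 5000 bp, 2543 domains remained in ESCs, coverage was 43.7% in cPGCs and 19.8% in ESCs, the ratio 2.21, median widths 12600 and 9300 bp, median gaps 7200 and 23400 bp, core shares 30.7% and 67.8%, and 37.7% of ESC-free bases lay inside cPGC domains. With an overlap of at least 50% of the domain, core shares were 24.1% in cPGCs and 66.0% in ESCs. Specific domains in place of expansions were the larger part of the net excess at 5000 bp and at 50% overlap, and expansions were the larger part in the other settings. Both of these rules by themselves move cPGC bases into the specific class. 14 windows reached a coverage ratio of 2 in place of 1.5. Shifted windows put 45.6% of the excess into 10 windows. Leaving out window 29, which was decided after seeing the data, gave 1.94 as the coverage ratio. Shares of bases and the coverage ratio were called moved outside their 95% interval over grid cells of 300 bp, which are not independent. For ratios of domain numbers and mean widths, and for shares of domains or gaps, the interval used numbers of domains or gaps. Medians used a 95% interval from ranked values, and counts a factor of 1.5. Of 52 checks of main results, 36 moved and 16 stayed the same. Of 34 further checks, 28 moved, 5 stayed the same and 1 was reversed. Depth limits could not be given, since the lists hold no counts. No paired analysis was possible because each cell type has 1 library of each kind.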
